A study of Mus musculus with 6 samples.

Results

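The genes described here build the presynaptic active zone and the machinery that releases synaptic vesicles. They were 38 named genes, chosen with earlier results of these data known and looked up by symbol. All 38 were measured, by 94 of the 45037 probe sets on the array (Affymetrix Mouse Genome 430 2.0). The study hybridised RNA from the arcuate hypothalamus of mice aged 2 weeks to 6 arrays. In the 3 POMCDicerKO samples the microRNA-processing enzyme Dicer had been deleted in the cells that express Pomc, the precursor of the melanocortin peptides, and 3 control samples (genotype Ctrl) stood against them. All samples shared a mixed C57Bl/6J, FVB/N and 129 background, were described as independent, and were dissected tissue that also held the many cell types outside the deletion. The sources used here do not give the allele, the Cre driver or whether a sample pooled animals, so p-values measure the spread between these samples. The comparison asked whether the transcripts of the release machinery differed in the whole arcuate tissue when Pomc cells lacked Dicer.

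A synaptic vesicle docks at a protein scaffold under the presynaptic membrane, the active zone, where ERC, Bassoon, Piccolo, RIM, RIM-binding and liprin-alpha proteins hold it next to calcium channels. Munc13 and CAPS proteins prime it, the SNARE proteins of the vesicle and the plasma membrane zip together, and complexins and synaptotagmins couple fusion to calcium entry. NSF and its SNAP adaptors then take the SNARE complexes apart for reuse. Nearly all neurons use this machinery, in the hypothalamus for fast transmitters and, in related forms, for peptide granules.

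Some arrays stood apart whatever their group. By the mean of a gene list, controls 1 and 2 were high and control 3 low in meningeal genes. In the mean of genes of other hypothalamic nuclei POMCDicerKO 1 and control 1 were high and control 2 low. The values are given further on beside the members concerned. All 6 measured arcuate genes of the marker list had means of at least 6. Pomc was at 9.35, 9.71 and 9.43 in POMCDicerKO, against 9.94, 10.87 and 9.76 in controls at 1433800_a_at, a log2 difference of -0.69 (limma unadjusted p = 0.033, adjusted p = 1). At a second Pomc probe set, 1455858_x_at, the log2 difference was -0.67 and the groups overlapped. Dicer1 was at 9.18, 9.19 and 9.33 in POMCDicerKO, against 9.22, 9.18 and 9.24 in controls at 1460571_at, so the groups overlapped. A second Dicer1 probe set, 1427941_at, gave 0.090, also with overlapping groups. Where the Dicer1 probes lie relative to the deleted part is not known here, so Dicer1 is no test of the genotypes in tissue of many cell types.

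No difference in any of the 38 genes passed the test. Values are deposited log2 expression values, and differences are POMCDicerKO minus control. By limma with Benjamini-Hochberg adjustment over all probe sets, 0 of the 94 probe sets of these genes had an adjusted p under 0.05, as for the array as a whole (0 of 45037, 0%). At an unadjusted p under 0.05 there was 1 of 94, for Erc1, where the share over the whole array was 2.44%. Each gene was also described by 1 main probe set, the one of highest mean. On these, 0 of 38 genes had an unadjusted p under 0.05, where 2.41% of all genes did. Of the 38, 18 were higher in POMCDicerKO and 20 lower, with a median log2 difference of -0.0017, against 44.9% higher and a median of -0.0099 over all 18193 genes. The differences ran from -0.13 for Rimbp2 to 0.24 for Cplx1, and 28 of the 38 lay within 0.1 of 0.

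The arrays bounded most of these differences closely in the whole tissue, which does not bound a difference confined to Pomc cells. For 34 of the 38 genes the 95% interval lay within 0.5 of 0 on the log2 scale, a 1.41-fold difference. The share was larger over all genes, at 95.1%. The median half-width of the interval was 0.18 for these genes and 0.19 over all genes. The 4 genes with wider intervals were Unc13c, Vamp1, Cplx1 and Cplx2, each at its upper end. A main probe set below a mean of 6, where little signal over background is expected, was found for 1 gene, Sv2c, the vesicle glycoprotein of a few neuron types. RMA normalisation removes a difference shared by most transcripts, so these are differences relative to the other transcripts. In dissected tissue, fewer cells of a type and less RNA per cell cannot be told apart.

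**Figure D1:**
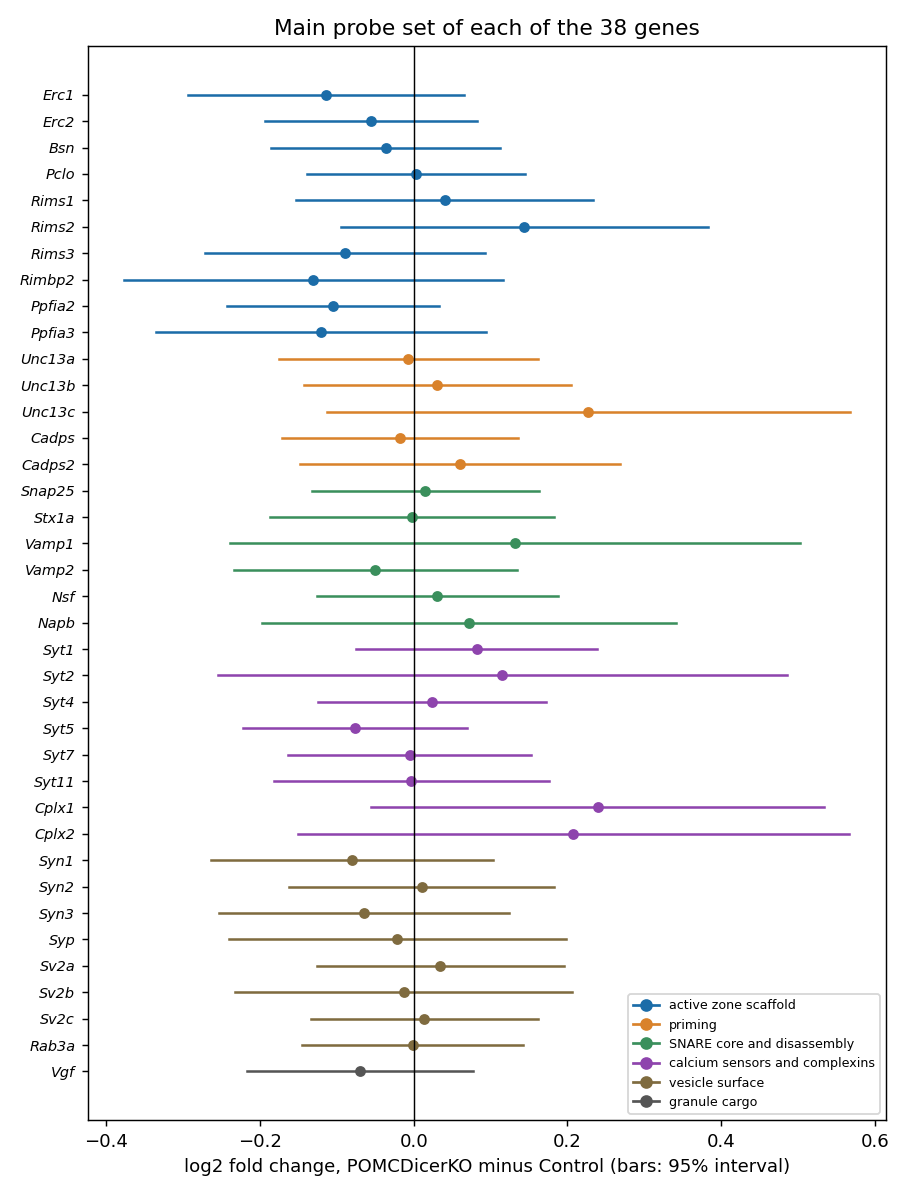
Each point is the log2 fold change (POMCDicerKO minus Control) of the main probe set of 1 of the 38 genes and each bar its 95% interval, coloured by role. Every interval covers 0, and those of Unc13c, Cplx2, Cplx1 and Vamp1 reach past 0.5.

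Erc1, the ubiquitous member of the ERC scaffold family that binds RIM and liprin proteins, held the largest difference, at 1 of its 4 probe sets. Probe set 1441493_at read 6.07, 5.97 and 6.36 on the POMCDicerKO arrays, against 6.74, 7.07 and 6.70 on the control arrays. Every POMCDicerKO value lay below every control value. The means were 6.13 ± 0.20 in POMCDicerKO and 6.84 ± 0.20 in controls (SD, n = 3 each). The POMCDicerKO mean lay close to 6, the level below which little signal over background is expected, and the array medians were 6.01 to 6.05. The log2 difference was -0.71 (standard error 0.13; 95% interval -1.01 to -0.40), which is 1.63-fold lower in POMCDicerKO. The unadjusted p was 0.000794, the limma adjusted p = 1 and the two-sided exact permutation p = 0.1, the smallest that 3 against 3 can give. Leaving out any 1 array gave differences between -0.82 and -0.59, and leaving out controls 1 and 2 together gave -0.57. Because the groups did not overlap, leaving out arrays could not change the sign. The members were chosen with earlier results of these data known, so these values are no independent support for a difference in Erc1.

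The other 3 Erc1 probe sets did not repeat that size. The main probe set, 1451279_at, read 7.40, 7.37 and 7.37 in POMCDicerKO, against 7.48, 7.63 and 7.38 in controls, a difference of -0.11 with an interval from -0.29 to 0.065. Probe set 1424247_at gave -0.10 (standard error 0.11) and 1421501_a_at gave -0.013 (standard error 0.087), with overlapping groups at both. With single arrays left out, 1451279_at ran from -0.17 (without control 3) to -0.048 (without control 2), and 1424247_at from -0.19 (without POMCDicerKO replicate 2) to -0.012 (without POMCDicerKO replicate 3). Without controls 1 and 2 they were at -0.0020 and -0.022. The annotation assigns 1451279_at and 1424247_at to the same cDNA and 1441493_at to a different sequence record. Whether the probe sets read different Erc1 transcripts was not tested. In the plot of the Erc1 probe sets, the gap between the groups appears at 1441493_at and not at the other 3.

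**Figure D2:**
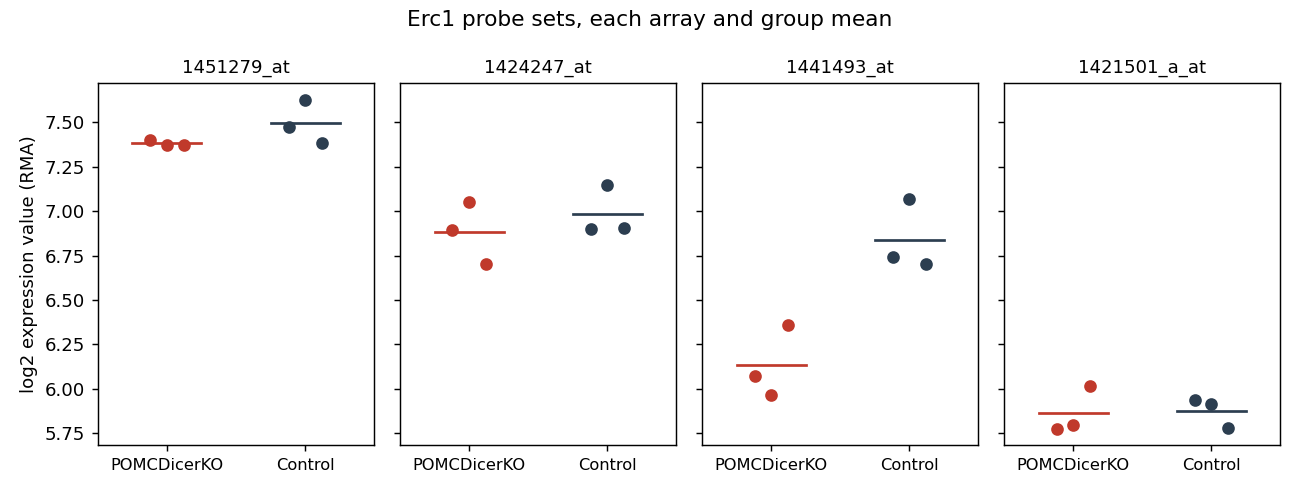
The log2 expression values of the 4 Erc1 probe sets are shown by array, POMCDicerKO left of Control, with lines at group means (n = 3 each). At 1441493_at the POMCDicerKO arrays read 5.97 to 6.36 and the controls 6.70 to 7.07, while the groups overlap at the other 3 probe sets.

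Promoter sequences are shown for 3 genes: Erc1, which held the largest difference of any probe set of these genes, Cplx1, which held the largest on a main probe set, and Syn1, because its promoter is a textbook target of the neuronal silencer REST and held motif matches. They are the 250 bases before each annotated start, from RefSeq on GRCm38.p6, all on the minus strand, at chr6:119848151-119848400 (Erc1), chr5:108550028-108550277 (Cplx1) and chrX:20920919-20921168 (Syn1). Capitals mark matches to the motifs described after them.
Erc1: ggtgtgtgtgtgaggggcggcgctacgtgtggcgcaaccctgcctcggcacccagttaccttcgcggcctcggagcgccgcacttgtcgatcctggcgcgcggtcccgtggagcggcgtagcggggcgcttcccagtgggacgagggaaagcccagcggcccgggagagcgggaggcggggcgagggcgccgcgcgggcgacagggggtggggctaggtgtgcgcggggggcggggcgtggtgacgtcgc
Cplx1: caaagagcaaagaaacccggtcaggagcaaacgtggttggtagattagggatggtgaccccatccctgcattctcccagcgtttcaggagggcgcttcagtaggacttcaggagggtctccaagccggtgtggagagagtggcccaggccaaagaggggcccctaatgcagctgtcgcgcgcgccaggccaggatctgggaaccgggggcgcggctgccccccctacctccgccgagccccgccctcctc
Syn1: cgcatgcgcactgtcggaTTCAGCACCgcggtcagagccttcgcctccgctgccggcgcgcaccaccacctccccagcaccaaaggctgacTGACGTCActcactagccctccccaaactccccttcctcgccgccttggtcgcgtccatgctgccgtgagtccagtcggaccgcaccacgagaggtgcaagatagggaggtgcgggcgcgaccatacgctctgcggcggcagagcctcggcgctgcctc

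Windows were found for 30 of the 38 genes, 37 windows in all. The missing genes were Rims2, Snap25, Syn3, Syt4, Syt5, Syt7, Vamp2 and Vgf. Both strands were searched for 2 motifs without mismatches: the cyclic AMP response element TGACGTCA and TTCAGCACC, the first letters of the longer element that REST binds. Syn1 held both, TGACGTCA, which reads the same on both strands, beginning 159 bases before its start, and TTCAGCACC, in the orientation of the gene, beginning 232 bases before it. Ppfia3 held TTCAGCACC, and no other of the 30 genes with a window held either motif. Over all 32851 windows the shares with a match were 1.55% for the cyclic AMP element and 0.301% for TTCAGCACC. The windows of Erc1, Cplx1 and Syn1 were 76.0%, 64.8% and 68.0% G and C. A match describes letters and not a bound site, and none of the 3 genes passed the test between the groups.

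Among the 10 scaffold genes, 7 were lower in POMCDicerKO and 3 higher, with a median of -0.072 and a range from -0.13 to 0.14. The groups did not overlap at the main probe sets of Erc2 and Ppfia2, both lower. Over all 38 genes this was so for 4, all lower. Of all genes, 3.86% were lower without overlap, 2.58% were higher without overlap and 6.44% were apart in either direction. Over the 94 probe sets 6 were apart, 5 lower and 1 higher, where 6.36% of all probe sets were apart. Of the 40 further release genes described below, 1 was lower and 1 higher without overlap. Ppfia2, a liprin-alpha that links the scaffold to vesicle cargo, read 8.63, 8.60 and 8.62 in POMCDicerKO, against 8.70, 8.76 and 8.71 in controls. All 3 control arrays were higher, and the difference was -0.11 (interval -0.24 to 0.033). Its second probe set, 1445766_at, with means of 3.81 in POMCDicerKO and 3.71 in controls near the bottom of the scale, was apart the other way, at 0.10. Erc2, the brain-specific ERC protein, read 10.59, 10.58 and 10.57 in POMCDicerKO, against 10.66, 10.60 and 10.65 in controls, a difference of -0.055. These gaps were narrow next to the intervals, and neither gene had an unadjusted p under 0.05 (0.12 and 0.38).

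Rims2 had the largest positive difference among the scaffold genes. RIM2 recruits Munc13, Rab3 and calcium channels to the release site. Its main probe set 1422809_at read 10.65, 10.72 and 10.55 in POMCDicerKO, against 10.67, 10.30 and 10.51 in controls, a difference of 0.14 with a standard error of 0.10. The groups overlapped, and without control 2, the lowest array, the difference was 0.047, while without control 1 it was 0.23. The other Rims2 probe sets gave 0.00099 at 1436470_at, 0.10 at 1450761_s_at, 0.083 at 1443215_at and, near the bottom of the scale, -0.17 at 1432102_at. Of the remaining scaffold genes, Rimbp2, which ties RIMs to calcium channels, was at -0.13, the liprin Ppfia3 at -0.12, Rims3 at -0.089 and Rims1 at 0.040. The giant scaffold proteins Bassoon and Piccolo had Bsn at -0.036 and Pclo at 0.0029, the Pclo value with an interval from -0.14 to 0.14.

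Of the 5 priming genes, 3 were higher and 2 lower. Unc13c, a Munc13 known best from cerebellar granule cells, gave the largest difference of the 5. At 1455304_at it read 9.54, 9.21 and 9.17 in POMCDicerKO, against 9.29, 8.80 and 9.15 in controls. POMCDicerKO 1 was the highest array and control 2 the lowest, and the groups overlapped. The difference was 0.23 (interval -0.11 to 0.57), and it was 0.088 without control 2 and 0.33 without control 1. Unc13a, the main Munc13 of forebrain synapses, was at -0.0068 and Unc13b at 0.031. The CAPS genes Cadps and Cadps2, which serve dense-core granule release, were at -0.018 and 0.060.

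The 6 SNARE and disassembly genes split 4 higher to 2 lower. Snap25, the plasma membrane SNARE of nearly all neurons, read 13.24, 13.14 and 13.16 in POMCDicerKO, against 13.18, 13.12 and 13.19 in controls. Its difference was 0.015 with an interval from -0.13 to 0.16, and its groups overlapped. A second Snap25 probe set, 1447763_at, gave 0.35 with an interval from -0.32 to 1.01. It read 7.25, 7.24 and 6.99 in POMCDicerKO, against 7.30, 6.07 and 7.08 in controls, so control 2 stood apart from the other 5 arrays. Stx1a, its syntaxin partner, was at -0.0022, the vesicle SNARE Vamp2 at -0.050, the ATPase Nsf at 0.031 and the adaptor Napb at 0.072.

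Vamp1, the vesicle SNARE of brainstem and spinal neurons, varied most within groups of all 38 genes, with a residual SD of 0.25. At 1421863_at it read 9.61, 9.18 and 9.30 in POMCDicerKO, against 9.42, 8.91 and 9.37 in controls. The difference of 0.13 had an interval from -0.24 to 0.50, and without control 2 it turned to -0.030. A second probe set, 1421862_a_at, gave 0.28 (standard error 0.15). A further probe set that the annotation gives to Vamp1 and another gene together was not used.

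Calcium sensors and complexins numbered 8 genes, 5 higher and 3 lower, with a median of 0.053. Cplx1, a complexin that clamps and then promotes fusion, gave the largest main difference of the 38 genes. Probe set 1448832_a_at read 11.70, 11.34 and 11.44 in POMCDicerKO, against 11.47, 11.07 and 11.23 in controls. Control 1 lay above 2 of the POMCDicerKO arrays, so the groups overlapped. The means were 11.50 ± 0.18 in POMCDicerKO and 11.26 ± 0.20 in controls (SD, n = 3 each), and the difference of 0.24 had an interval from -0.056 to 0.53 and an unadjusted p of 0.098 (limma adjusted p = 1, two-sided exact permutation p = 0.3). The other Cplx1 probe sets gave 0.20 at 1417746_at and 0.099 at 1417747_at. It was at 0.34 without control 1 and at 0.14 without POMCDicerKO replicate 1.

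Cplx2, the forebrain complexin, stood at 0.21 at 1421477_at, with 9.32, 9.37 and 9.49 in POMCDicerKO, against 9.55, 9.09 and 8.91 in controls. Control 1 was the highest of all 6 arrays, the other controls were the lowest, and without control 1 the difference was 0.39. Its probe sets 1455672_s_at and 1436383_at gave 0.031 and 0.086.

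Syt1, the sensor for fast synchronous release, read 12.46, 12.37 and 12.45 in POMCDicerKO, against 12.40, 12.27 and 12.36 in controls, a difference of 0.082 with an interval from -0.075 to 0.24. All 4 Syt1 probe sets were positive, from 0.040 to 0.24, on the same 6 arrays. Syt2, the sensor of fast brainstem synapses, was at 0.12 with an interval from -0.26 to 0.49. Syt7, a slow sensor with high calcium affinity, was at -0.0050, Syt4, a synaptotagmin found on peptide granules, at 0.024, and Syt11, which lacks calcium binding, at -0.0034. Syt5 was at -0.077, with 7.74, 7.84 and 7.81 in POMCDicerKO, against 7.85, 7.89 and 7.88 in controls. Its groups did not overlap, by a gap between 7.84 and 7.85.

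On main probe sets, the 8 genes of the vesicle surface had a median absolute difference of 0.017. It was 0.053 for all 38 genes and 0.051 for all genes on the array. Synapsins tether vesicles to each other and to actin. Syn1 had the largest main difference of this group and read 8.73, 8.57 and 8.51 in POMCDicerKO, against 8.68, 8.74 and 8.63 in controls. Its groups overlapped, with a difference of -0.081 and an interval from -0.26 to 0.10. It ran from -0.14 without POMCDicerKO replicate 1 to -0.033 without POMCDicerKO replicate 3, and was -0.050 without control 2 and -0.024 without controls 1 and 2. Syn2 was at 0.011 and Syn3 at -0.064. The other Syn2 probe sets of mean at least 6 gave 0.12 at 1460230_at, 0.14 at 1449030_at and -0.013 at 1435511_at. Synaptophysin, the vesicle protein most used as a synaptic marker, had Syp at -0.021 with an interval from -0.24 to 0.20. The glycoprotein Sv2a was at 0.035 and its relatives Sv2b and Sv2c at -0.013 and 0.014. Rab3a, the GTPase that binds RIMs on vesicles, was at -0.0012, the smallest main difference of the list, with an interval from -0.15 to 0.14.

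Vgf, a granin-like peptide precursor packed into dense-core granules, was the only granule cargo in the list. It read 11.31, 11.32 and 11.25 in POMCDicerKO, against 11.34, 11.33 and 11.42 in controls. The groups did not overlap, but POMCDicerKO 2 and control 2 were nearly equal. Its difference was -0.070 with a standard error of 0.063, an unadjusted p of 0.30 and an interval from -0.22 to 0.077. It was -0.042 without control 3, -0.046 without POMCDicerKO replicate 3 and -0.13 without controls 1 and 2.

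**Figure D3:**
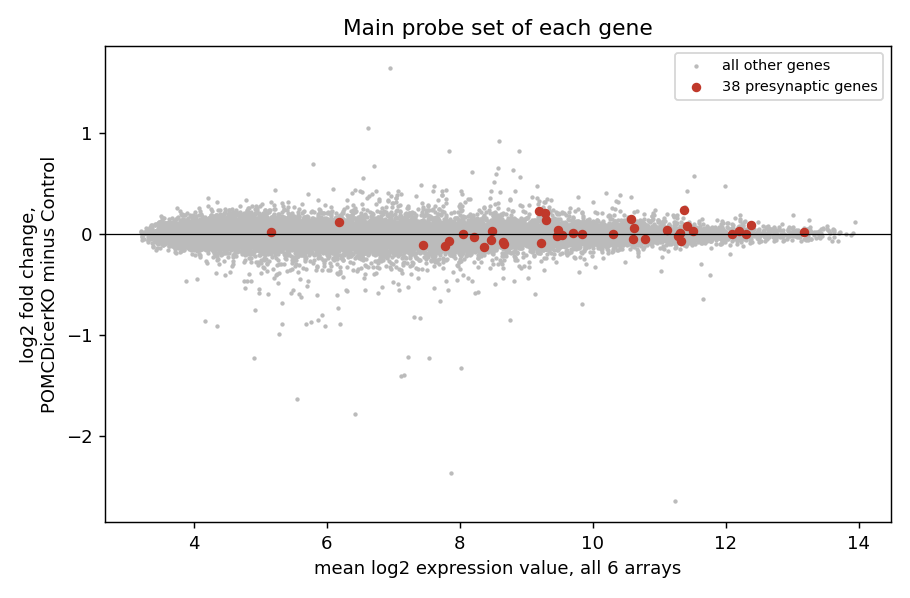
The log2 fold change of the main probe set of each of 18193 genes is plotted against its mean log2 expression value over all 6 arrays, with the 38 presynaptic genes in red. The red points lie between -0.13 and 0.24, among the other genes.

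Probe sets of the same gene differed in size. Of the 20 genes with more than 1 probe set of mean at least 6, the median range of the differences between probe sets was 0.14, and 7 genes had both signs. The widest were Erc1 (0.61), Snap25 (0.33), Syt7 (0.26) and Nsf (0.21). The narrowest were Rab3a (0.0018) and Stx1a (0.0027).

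Spread between arrays of the same group differed among members. The 5 with the largest residual SD were Vamp1, Syt2, Cplx2, Unc13c and Cplx1, from 0.25 down to 0.19, against a median of 0.080 for the other members. POMCDicerKO 1 was the highest array for 4 of these 5 and control 2 the lowest for 4 of 5, with Cplx2 the exception in both. Over all 38 genes, POMCDicerKO 1 was the highest array for 15, POMCDicerKO 2 for 3, POMCDicerKO 3 for 0, and controls 1, 2 and 3 for 8, 9 and 3. The lowest array was POMCDicerKO 3 for 12 and control 2 for 12.

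**Figure D4:**
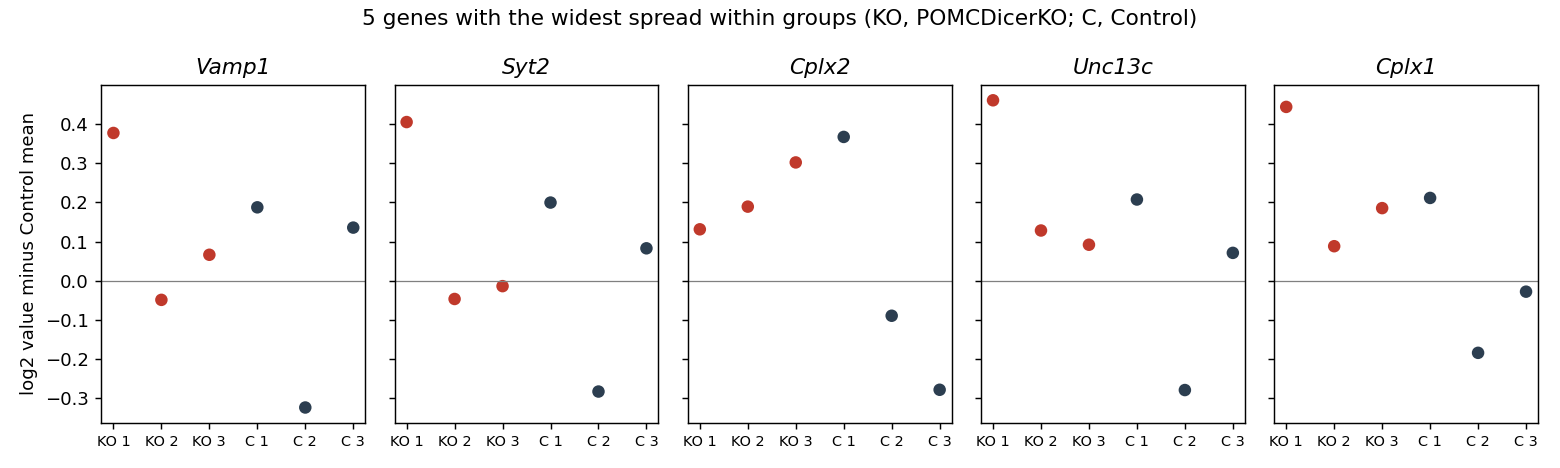
The log2 values of the 5 genes with the widest spread within groups are shown as differences from the Control mean, with the POMCDicerKO arrays (KO 1 to 3) left of the controls (C 1 to 3). POMCDicerKO 1 is highest and Control 2 lowest for Vamp1, Syt2, Unc13c and Cplx1, but not for Cplx2.

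The same arrays stood apart in the mean of genes of neighbouring regions. The mean of 8 genes of other hypothalamic nuclei, all 8 with a mean of at least 6, relative to the control mean was 0.37, -0.20 and 0.013 on the POMCDicerKO arrays, against 0.39, -0.47 and 0.081 on the controls. Pmch, of lateral hypothalamic neurons, read 13.22, 11.28 and 12.32 in POMCDicerKO, against 12.69, 10.91 and 13.06 in controls. The 6 measured arcuate genes, all of mean at least 6, stood at -0.70, -0.092 and -0.33 on the POMCDicerKO arrays, against -0.26, 0.36 and -0.099 on the controls. By these list means, POMCDicerKO 1 was low in arcuate genes and high in neighbouring ones, and control 2 the reverse. Control 1 was as high as POMCDicerKO 1 in the mean of the neighbouring genes. Single genes did not all follow the means: POMCDicerKO 1 was the lowest array for Oxt (10.16) and Nr5a1 (7.30), both of the neighbouring list. Of the arcuate list it was the lowest array for Pomc, Npy, Ghrh and Tbx3, but not for Tac2 or Cartpt. Cartpt read 10.38 on POMCDicerKO 1, above controls 1 and 2 at 10.22 and 10.17. The arcuate mean also held Pomc, the gene of the cells with the deletion. The part of the differences between list means in the spread of Vamp1, Syt2, Unc13c and Cplx1 was not tested.

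Like some other lists, the presynaptic genes had narrow array-to-array differences when averaged. Their mean relative to the control mean was 0.068, -0.0079 and -0.027 on the POMCDicerKO arrays, against 0.044, -0.033 and -0.011 on the controls, so the groups overlapped. The 12 pan-neuronal genes stood at 0.13, 0.015 and -0.041 in POMCDicerKO, against 0.052, -0.071 and 0.019 in controls, 6 higher and 6 lower with a median of 0.0064. The 40 further release genes described below stood at 0.050, -0.026 and -0.026 in POMCDicerKO, against 0.017, -0.016 and -0.00066 in controls. The array means of the 9 astrocyte genes lay between -0.071 and 0.056. Lists such as the myelin and meningeal genes differed more on the same arrays. All 11 measured myelin genes were higher, with a median of 0.42 and array means of 0.78, 0.13 and 0.39 in POMCDicerKO, against 0.12, -0.13 and 0.0039 in controls. All 10 meningeal and fibroblast genes were lower, with a median of -1.03 and array means of -0.77, -1.08 and -1.49 in POMCDicerKO, against 0.50, 0.50 and -0.99 in controls, where control 3 lay with the POMCDicerKO arrays.

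**Figure D5:**
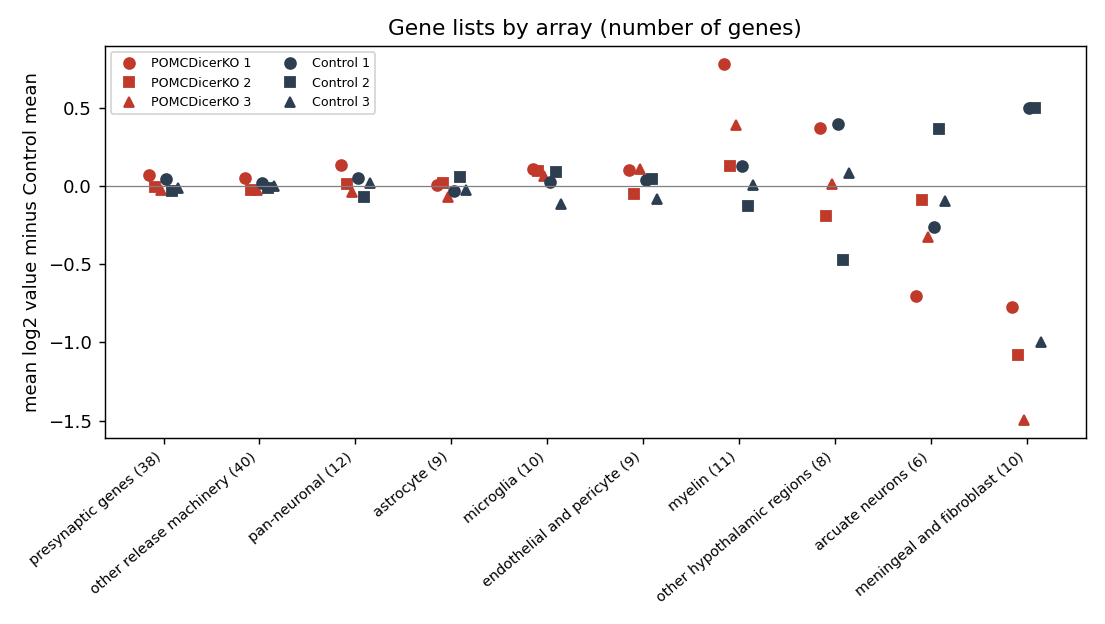
Points give the mean log2 value of each gene list on each array, minus the mean of the Control arrays, with the number of genes in brackets. The presynaptic genes lie between -0.033 and 0.068 and the other release machinery between -0.026 and 0.050. The meningeal and fibroblast list runs from -1.49 to 0.50.

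The count of members depended on single arrays. Without control 1, 7 of the 94 probe sets had an unadjusted p under 0.05 (7.45%), but so did 4.61% of the whole array. They were Cplx1 at 2 probe sets, Cplx2, Syt7, Syn2, Unc13b and Erc1, the last 2 lower. Without control 3 there were 5 (5.32%, against 2.98%), among them Syt1 1421990_at at 0.49 and 2 Napb probe sets. Without POMCDicerKO replicate 3 there were 3 (3.19%, against 3.33%), without control 2 there were 2 (2.13%, against 1.94%), and without controls 1 and 2 together 5 (5.32%, against 4.15%). Erc1 1441493_at was in every one of these sets, and 0 of the 94 passed the adjusted threshold in any of them. Without POMCDicerKO replicate 1, 11 of the 38 genes were higher, in place of 18.

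Other genes of vesicle release gave no call. Of 42 further genes of docking, fusion and vesicle recycling, 40 were measured, 23 higher and 17 lower, with a median of 0.0066 and a range from -0.12 to 0.085. Without POMCDicerKO replicate 1, 16 of the 40 were higher. By limma 0 passed the adjusted threshold and 0 had an unadjusted p under 0.05, where 2.41% of all genes did. All 40 intervals lay within 0.5 of 0, as did 95.1% of those of all genes. The smallest unadjusted p values belonged to the liprin Ppfia4 (-0.12), the scaffold kinase Cask (-0.096), the calcium sensor Doc2b (-0.10) and Syt12 (0.080). Their unadjusted p ran from 0.18 to 0.28.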

How the data were processed

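RNA of 3 POMCDicerKO and 3 control samples was hybridised to Affymetrix Mouse Genome 430 2.0 arrays. The authors deposited log2 expression values, made with RMA and the affy package per the submitters' processing notes, and their versions are not stated there. No genome build is named. The values were used as deposited, with 64 control probe sets left out. Groups and replicate numbers came from sample titles, and 0 sample columns went unused.

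Of 45037 probe sets, the annotation gave 34945 a single symbol, 932 several and 9160 none. Symbols were updated through RefSeq, where 34741 were found. The main probe set of a gene was the one of highest mean over the 6 arrays.

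Groups were compared by limma 3.58.1 (lmFit, eBayes; R 4.3.3). Adjusted p-values are Benjamini-Hochberg over all probe sets, with a threshold of 0.05. Errors of differences are limma's standard errors. Gene lists are described by counts and medians, without a test. The fit was tested on simulated data. Members, roles and lists were chosen with earlier results of these data known.

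Probe sets are given array by array where the unadjusted p was under 0.05, and for the member of each role with the largest main difference. Erc2, Ppfia2, Snap25, Syt1, Syt5 and Cplx2 were added after their values were seen. The other members are given by the difference of the main probe set. Alternatives were array centring, a further quantile normalisation, a minimum mean of 6, a trended and robust prior, a replicate block, averaging the probe sets of each gene, and leaving out arrays. The number of arrays limits the precision. No hybridisation or scan batch is given.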

Additional observations from a re-analysis of the deposited data

How the results depend on the processing

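Over all probe sets, 0 passed the adjusted limma threshold and 1098 had an unadjusted p under 0.05. Leaving out single arrays gave 0 to 2 and 874 to 2075, and leaving out controls 1 and 2 together gave 1 and 1868, with control 3 assumed to vary like the POMCDicerKO arrays. A trended, robust prior gave 1 adjusted call, and a minimum mean of 6 left 427 unadjusted, with fewer probe sets tested. Of the presynaptic probe sets, 0 passed the adjusted threshold under any alternative run. Their unadjusted count of 1 was 2 with the trended, robust prior (2.13%, against 2.34% of all probe sets), 5 without controls 1 and 2, and 1 to 7 with single arrays left out.

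With the replicate block the presynaptic count was 4 (Erc1 1441493_at, Cplx1 1417746_at and 1448832_a_at, and Vamp1 1421862_a_at), against 1 without it. That was 4.26% of the presynaptic probe sets, where 1396 of all probe sets (3.10%) had an unadjusted p under 0.05 in the same fit. Deviations from the group means of same-numbered arrays correlated at 0.13, 0.079 and 0.12. The labels state no block, so the numbers were not taken to pair the samples in the main fit. All 6 arrays correlated best with the array of their own number in the other group. Deviations cancel within a group, so these 6 matches are not independent. Whether they reflect a pairing was not tested.

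With single arrays left out, 11 to 23 of the 38 genes were higher and their median ran from -0.025 to 0.021. For the 40 further release genes, 16 to 25 were higher and the median ran from -0.020 to 0.021, and averaging the probe sets of each gene gave 29 higher. Vamp1 1421863_at ran from -0.030 to 0.23 and was -0.0041 without controls 1 and 2. Erc1 1421501_a_at ran from -0.090 to 0.030 and was 0.085 without controls 1 and 2. Erc1 1441493_at ran from -0.82 to -0.57 over the alternatives that fitted single probe sets. Its groups did not overlap, so leaving out arrays could not change its sign. Shifts of the median of the 38 genes were set against the SD of the list's median deviation on each control array. Centring, the further normalisation and averaging the probe sets of each gene shifted the median by less than this SD. Leaving out control 1, control 2, POMCDicerKO replicate 1 or POMCDicerKO replicate 3 shifted it by more.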
